A study of Mus musculus with 45 samples.

Results

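Primary tumors grown from 4T1 cells were compared with the porous implants carried by 4T1-inoculated mice. The comparison used 6 of the 45 libraries of the series, 3 from 4T1 primary tumors and 3 from 4T1 scaffolds, and was unpaired because the labels do not link the tissues of a mouse. Genes were kept where they held more than 10 counts over these libraries, which left 19268 of 55367 gene symbols. 4T1 is a metastatic triple-negative mammary carcinoma cell line, and 67NR and 4T07 are sister lines from the same spontaneous tumor of a BALB/cfC3H mouse.

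All mice were female BALB/c. A polycaprolactone scaffold, a degradable polyester disk with open pores, was placed under the skin of the upper back at 7 to 8 weeks of age. After 2 weeks the mice received 4T1 cells in the fourth right mammary fat pad, and tumors and scaffolds were taken at day 14. Other mice with the implant received 67NR or 4T07 cells at the same site, with tissues taken on the same day. The dose of cells was the same for all lines. These mice gave 3 tumor and 3 scaffold libraries per line, used here for the comparison between lines. Tumor-free mice with the same implant gave 3 control scaffolds, used here as the background level. Each group holds 3 libraries, and libraries are called by the numbers in their labels (tumors 43, 44 and 45; scaffolds 34, 35 and 36; control scaffolds 1, 2 and 3). A tumor library mixes inoculated 4T1 cells with host cells, whereas a scaffold library holds the cells that entered the implant, and neither was sorted.

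A polymer implant is met by a foreign body response. Neutrophils and monocytes arrive first, macrophages settle on the polymer, and some of them fuse into foreign body giant cells, which share many genes with the osteoclasts that resorb bone. Fibroblasts and vessels then fill the pores. A carcinoma is built differently. Its bulk is epithelial cells that divide, joined by keratins and claudins and resting on laminins, with immune and stromal cells between them.

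Total counts were 4632960 to 5468658 in the tumors and 5362342 to 6124977 in the scaffolds, so that 3 counts in 1 library correspond on average to 0.604 CPM (the count scaled to a common library total) in a tumor and 0.529 CPM in a scaffold. Markers chosen after their values were seen matched the labelled tissues, which is a description and no test of the labels. Epcam, an adhesion protein of epithelial cells, was at 203 to 235 CPM in the tumors and at 3.95 to 11.9 CPM in the scaffolds, and Acp5, the acid phosphatase of osteoclasts and giant cells, was at 59.1 to 72.8 CPM in the tumors and at 790 to 817 CPM in the scaffolds. Scaffold 35 stood apart from the other two scaffolds. Ribosomal protein genes took 2.38% of its counts against 3.85% and 4.30% in scaffolds 34 and 36, and the summed level of the skeletal muscle markers was 404 CPM against 156 and 141 CPM. Tumor 45 held the most of these muscle markers among the tumors, 863 CPM against 311 and 116 CPM.

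In all, 5493 genes changed between 4T1 tumors and 4T1 scaffolds, which is 28.5% of those tested (edgeR quasi-likelihood test, Benjamini-Hochberg adjusted p under 0.05 and more than 2-fold). Of these, 2706 genes (14%) were higher and 2787 (14.5%) were lower in tumors, and these shares are the background for every list below. The median log2 fold change over all genes tested was -0.03. The differences were large: 271 of the genes called were over 16-fold higher and 167 over 16-fold lower in tumors. For 5339 of the 5493 genes called, the 3 tumors and the 3 scaffolds did not overlap in CPM, and over all genes tested 30% were without overlap and higher in tumors and 22.2% without overlap and lower. Since the tissues are bulk samples, fewer cells of a type and less RNA per cell cannot be told apart in any result here.

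The 12 genes with the largest increase among those reaching 50 CPM were mostly genes of epithelial surfaces and of secreted signals. Tmprss11e, which encodes a membrane-bound serine protease, was at 145, 123 and 127 CPM in tumors 43, 44 and 45 and had no count in any 4T1 scaffold. Its level in tumors was at least 249-fold higher than the limit of 3 counts per scaffold library. Gpa33, a cell surface antigen known from intestinal epithelium, was at 119, 135 and 136 CPM and likewise had no count in the scaffolds, at least 245-fold below the tumors. Both genes were thus seen in every tumor and in no 4T1 scaffold, while the control scaffolds reached 0.21 CPM for Tmprss11e and 0.315 CPM for Gpa33.

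Ibsp, which encodes bone sialoprotein, was at 86.3, 53.3 and 76.6 CPM in tumors, and the scaffolds held 1 count in total. The ratio of the groups was 1238 with a 95% interval from counting error of 222 to 48930. Phlda2, an imprinted gene of placental growth, was at 61.1, 64.2 and 42.7 CPM in tumors against 1 count over the scaffolds, a ratio of 962 (172 to 38047). Intervals and count limits here cover counting error only. Wnt7b, a Wnt ligand, was at 172, 166 and 228 CPM in tumors and at 0.653, 0.186 and 0 CPM in scaffolds. Prss22, a serine protease, was at 44.6, 61.1 and 57.8 CPM against 0, 0.746 and 0.18 CPM. Each of these genes was near the detection limit in the scaffolds and present in all 3 tumors. Tgfa, a ligand of the epidermal growth factor receptor, was at 89.1, 98.6 and 97.3 CPM in tumors against 0.816, 0.373 and 0.539 CPM (log2 fold change 7.15 ± 0.27 SE, adjusted p 1.11e-07). Hhip, which binds Hedgehog ligands, was at 69.3 to 97 CPM in tumors and at 0.327 to 0.932 CPM in scaffolds (log2 fold change 6.88 ± 0.32). Lad1, a protein of epithelial anchoring filaments, was at 139 to 146 CPM against 0.359 to 1.14 CPM (7.48 ± 0.29).

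**Figure D1:**
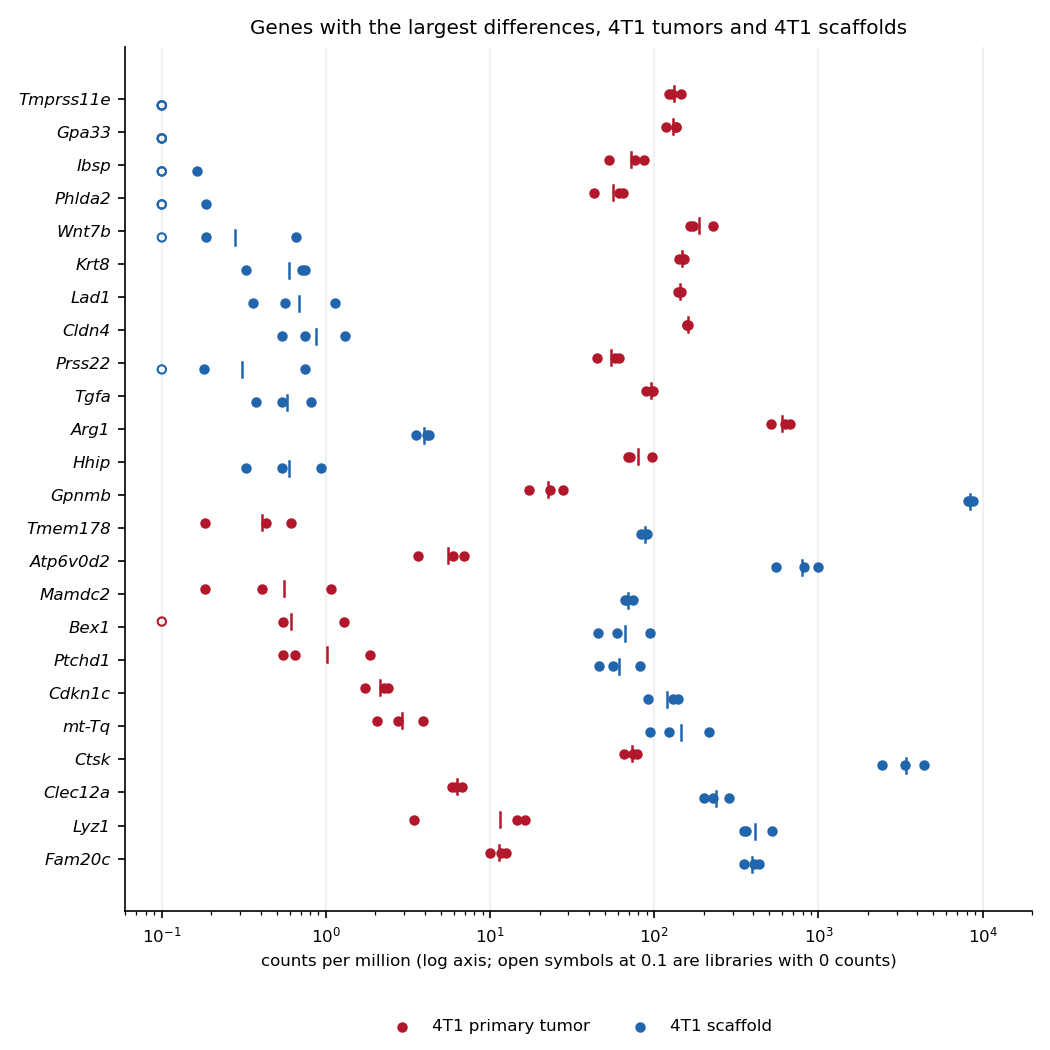
CPM (log axis) of the 12 genes with the largest increase and the 12 with the largest decrease in 4T1 tumors, 1 point per library (3 tumors in red, 3 scaffolds in blue), with short lines at group means of at least 0.1 and open symbols at 0.1 for libraries with 0 counts. Tmprss11e and Gpa33 are above 100 CPM in every tumor and at 0 in every scaffold, and Gpnmb runs from 17.3 to 27.7 CPM in tumors and from 8176 to 8765 CPM in scaffolds, without overlap in any row.

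The 12 genes with the largest decrease in tumors included several that osteoclasts and lipid-handling macrophages are known to use. Gpnmb, a lysosome-associated glycoprotein of macrophages, was at 23, 27.7 and 17.3 CPM in tumors and at 8364, 8176 and 8765 CPM in scaffolds, and was 412-fold lower in tumors (log2 fold change -8.69 ± 0.33, adjusted p 1.11e-07). Tmem178, a membrane protein that restrains osteoclast formation, was at 0.183 to 0.615 CPM against 83.1 to 90.6 CPM (log2 fold change -7.82 ± 0.30). Cdkn1c, an imprinted inhibitor of cyclin-dependent kinases, was at 1.73 to 2.38 CPM against 92.1 to 139 CPM (-5.95 ± 0.28). These differences were far wider than the spread inside either group. Clec12a, an inhibitory lectin of myeloid cells, was at 5.83 to 6.76 CPM in tumors and 202 to 286 CPM in scaffolds (-5.39 ± 0.22), and Fam20c, a kinase of the secretory pathway, was at 9.93 to 12.4 CPM against 352 to 431 CPM (-5.27 ± 0.22). Mamdc2, Bex1 and Ptchd1 reached 45.3 to 93.9 CPM in scaffolds and no more than 1.84 CPM in tumors. Lyz1 (3.45 to 16.4 against 355 to 520 CPM) shares reads with its near-identical copy Lyz2, and mt-Tq (2.05 to 3.89 against 94.3 to 215 CPM) is a mitochondrial transfer RNA gene that overlaps its neighbours' reads, so that both are uncertain.

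Epithelial genes were the list furthest above the other gene lists in tumors, apart from 4 genes that had been chosen from tumors of this series. Of 18 markers of simple epithelium tested, 16 were higher in tumors and none was lower, and the median log2 fold change over the list was 4.07. Their summed level was 1541 to 1686 CPM in tumors and 37.2 to 70.9 CPM in 4T1 scaffolds. Control scaffolds of tumor-free mice lay at 26.0 to 120 CPM, a range that covers all 3 4T1 scaffolds. Krt8 and Krt18 encode the keratin pair of simple epithelium. Krt8 was at 150, 142 and 152 CPM in tumors against 0.327, 0.746 and 0.718 CPM in scaffolds (log2 fold change 7.78 ± 0.27, adjusted p 1.11e-07), and Krt18 was at 540, 431 and 375 CPM against 14.4, 4.29 and 6.46 CPM (5.58 ± 0.40).

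Junction proteins moved the same way. Cldn4, a tight junction claudin, was at 158, 159 and 161 CPM in tumors and at 1.31, 0.746 and 0.539 CPM in scaffolds (log2 fold change 7.33 ± 0.27). Cdh1, which encodes E-cadherin, was at 158 to 169 CPM against 9.7 to 15.8 CPM (3.56 ± 0.21). Esrp1, an epithelial splicing factor, was at 11.0 to 11.9 CPM against 0.18 to 0.653 CPM (4.59 ± 0.39). No tumor overlapped a scaffold for these genes. The exceptions in the list were Ehf, an epithelial transcription factor at 0.432 to 2.56 CPM in tumors and 2.33 to 4.29 CPM in scaffolds, and Esrp2, which was under 1 CPM in all 6 libraries. Of 8 epidermis and hair follicle markers tested, Krt14 alone was higher (38.8 to 61.7 against 1.62 to 4.9 CPM, log2 fold change 3.59 ± 0.33), and none of 5 milk protein genes tested passed. Without scaffold 35, 2 epidermis and hair follicle markers were higher, and without scaffold 34, 1 of them and 1 milk protein gene were lower. Regulators of the epithelial-mesenchymal transition were split, with Twist2 and Ovol2 higher and Zeb1, Zeb2 and Cdh2 lower of 9 tested. Without scaffold 35 the count of these regulators that were higher was 4.

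Genes of cell division were also higher in tumors. Of 31 cell cycle and DNA replication genes, 27 were higher and none lower, with a median log2 fold change of 2.18 and a summed level of 3095 to 3418 CPM in tumors against 585 to 978 CPM in scaffolds. Cdk1, the kinase that drives entry into mitosis, was at 179, 187 and 153 CPM in tumors and at 25.1, 14.9 and 13.3 CPM in scaffolds (log2 fold change 3.14 ± 0.25, adjusted p 4.45e-06). Top2a, the topoisomerase that untangles replicated DNA, was at 773, 761 and 711 CPM against 182, 98.1 and 92.6 CPM (2.45 ± 0.26). Mki67, the gene of the Ki-67 antigen, was at 111, 96.3 and 102 CPM against 74.9, 16.6 and 24.4 CPM (1.27 ± 0.43, adjusted p 0.0385), with scaffold 34 closest to the tumors, and it passed in the leave-one-out fits only without scaffold 34. Pcna, a sliding clamp of replication, was at 65.0 to 69.7 CPM in tumors and 50.9 to 57.3 CPM in scaffolds and did not pass (log2 fold change 0.17 ± 0.16).

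Promoters of mitotic genes are known for CCAAT boxes and for the CHR element, TTTGAA. The 200 bases before the start site of Cdk1 and Top2a (RefSeq, GRCm38.p6) are shown because both genes rose in tumors and hold several copies of these letters, which are in capitals (CCAAT or its other strand ATTGG, and TTTGAA or TTCAAA).
Cdk1, chr10:69352913-69353112, minus strand: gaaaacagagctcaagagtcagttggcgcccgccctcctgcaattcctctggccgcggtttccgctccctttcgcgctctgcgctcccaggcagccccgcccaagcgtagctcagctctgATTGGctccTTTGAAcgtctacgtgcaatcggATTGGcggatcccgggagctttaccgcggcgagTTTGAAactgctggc
Top2a, chr11:99024190-99024389, minus strand: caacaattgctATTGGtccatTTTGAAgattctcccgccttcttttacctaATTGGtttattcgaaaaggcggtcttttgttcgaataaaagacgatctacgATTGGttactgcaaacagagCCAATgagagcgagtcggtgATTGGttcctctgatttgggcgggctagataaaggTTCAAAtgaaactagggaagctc
In Cdk1 the matches started 80 to 15 bases before the start site and in Top2a 189 to 23 bases before it. Of the 31 genes, 26 matched a promoter in the RefSeq table, and 21 of these held CCAAT on either strand in this window. By promoter this was 22 of 27 (81.5%) against 29.3% of all 32851 promoters, and TTTGAA was in 25.9% of the list's promoters against 12.5% of all. A match of letters is a description and was not tested as a binding site.

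Genes of glycolysis and of the response to low oxygen were more often higher than lower. Of 26 tested, 13 were higher and 1 was lower, with a median log2 fold change of 1.10. Car9, a carbonic anhydrase of the cell surface known for its induction in hypoxia, was at 77.2, 106 and 112 CPM in tumors against 3.43, 5.41 and 1.44 CPM in scaffolds (log2 fold change 4.71 ± 0.33, adjusted p 2.15e-06). Egln3, an oxygen-sensing hydroxylase, was at 109, 112 and 90.4 CPM against 4.08, 4.85 and 3.77 CPM (4.47 ± 0.20). Hk2, the hexokinase that commits glucose to glycolysis, was at 372, 433 and 594 CPM against 113, 74.4 and 91.2 CPM (2.18 ± 0.24). All 3 genes were above every scaffold in every tumor. Vegfa, the growth factor of vessels, was at 40.8 to 67.1 CPM against 4.85 to 8.58 CPM (2.86 ± 0.28). Ldha, which turns pyruvate to lactate, was at 1096 to 1172 CPM in tumors and 539 to 996 CPM in scaffolds and did not pass (0.28 ± 0.26), and Pfkfb4 was the member that was lower (-1.41), with 2 lower without scaffold 34 or tumor 45. Of 30 genes of the respiratory chain and ATP synthase, 1 was higher and 1 was lower, and their median was -0.02. The higher count was 0 without scaffold 34, scaffold 35, tumor 43 or tumor 44 and 2 without scaffold 36 or tumor 45, and the lower count was 2 without scaffold 35 and 0 without scaffold 36 or tumor 45.

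The core of the hypoxia response element is written ACGTG, or CACGT on the other strand. It is in capitals in the promoter windows of Hk2 and Car9, shown because both genes were higher in every tumor.
Hk2, chr6:82774455-82774654, minus strand: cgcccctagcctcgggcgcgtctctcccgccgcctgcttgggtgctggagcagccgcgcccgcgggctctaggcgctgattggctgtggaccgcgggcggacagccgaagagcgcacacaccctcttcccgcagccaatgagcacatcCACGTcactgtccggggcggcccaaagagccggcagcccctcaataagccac
Car9, chr4:43506826-43507025, plus strand: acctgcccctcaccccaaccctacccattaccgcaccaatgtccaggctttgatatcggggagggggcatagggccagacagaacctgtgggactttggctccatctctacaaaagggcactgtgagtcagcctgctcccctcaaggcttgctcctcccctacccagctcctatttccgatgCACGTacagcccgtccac
The match lay 52 bases before the start site in Hk2 and 18 bases before it in Car9. The letters were in 15 of 35 promoters of the list (42.9%), belonging to 14 of 25 genes with a promoter, against 14.0% of all promoters. Genes with the letters included Ldha, which did not pass, and whether the presence of the letters goes with a change was not tested.

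**Figure D2:**
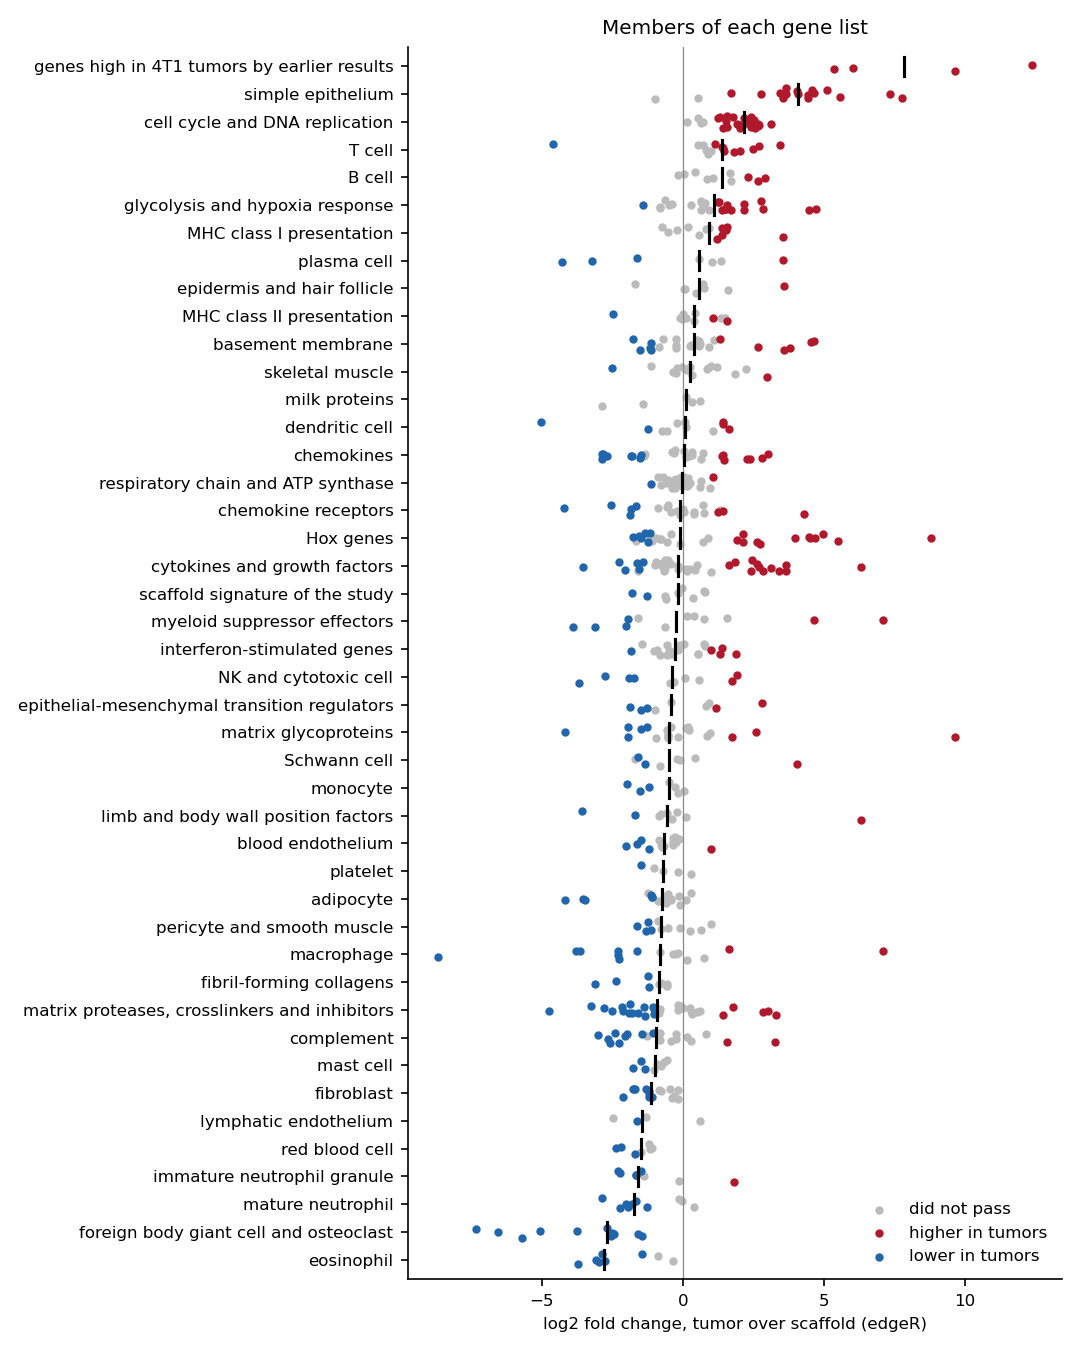
Log2 fold change of tumor over scaffold (edgeR) for each member of the gene lists, 1 point per gene, red where higher, blue where lower and grey where not past the test, with a black line at the list median (fitted values of genes near 0 counts in a group are no bound). Simple epithelium (median 4.07) and cell cycle genes (2.18) lie at the tumor end, eosinophil (-2.81) and foreign body giant cell genes (-2.68) at the scaffold end, and the respiratory chain lies at -0.02.

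Genes of giant cells and osteoclasts were lower in tumors. All 11 of the tested markers of this list (of 12 listed) were lower in tumors, with a median log2 fold change of -2.68. They summed to 376 to 477 CPM in tumors, 5042 to 7586 CPM in 4T1 scaffolds and 5815 to 6715 CPM in control scaffolds. Ctsk, a cathepsin that cuts collagen, was at 65.8, 78.5 and 74.7 CPM in tumors against 2441, 4408 and 3345 CPM in scaffolds (log2 fold change -5.68 ± 0.29, adjusted p 3.76e-07). Atp6v0d2, a subunit of the proton pump that acidifies the resorption space, was at 3.66, 5.94 and 6.91 CPM against 816, 550 and 1000 CPM (-7.33 ± 0.37). Dcstamp, which is needed for the fusion of macrophages into multinucleated cells, was at 1.46, 4.1 and 1.73 CPM against 52.7, 99.96 and 67.3 CPM (-5.05 ± 0.36). Ocstamp, its partner in fusion, was at 2.05 to 5.83 CPM against 15.7 to 21.9 CPM (-2.43 ± 0.34). The lowest scaffold was above the highest tumor for each of the 11 genes, where 22.2% of all genes tested were without overlap in this direction. Oscar, an osteoclast receptor, had 1 count over the tumors and was at 4.24, 12.1 and 7.18 CPM in scaffolds, 115 times the tumor level with an interval of 20.3 to 4579.

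Acp5 itself was at 67.3, 72.8 and 59.1 CPM in tumors and at 790, 817 and 803 CPM in scaffolds (log2 fold change -3.74 ± 0.19). Osteoclast genes are known targets of MITF-family factors, which bind TCACNTGA, and the promoter window of Acp5 is shown because it was the one in the list to hold these letters (in capitals).
Acp5, chr9:22130599-22130798, minus strand: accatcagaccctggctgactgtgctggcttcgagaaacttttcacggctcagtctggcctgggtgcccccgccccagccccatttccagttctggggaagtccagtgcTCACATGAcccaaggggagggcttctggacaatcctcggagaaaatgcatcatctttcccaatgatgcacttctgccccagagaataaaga
The match started 91 bases before the start site. Of the 12 genes, 5 matched a promoter of the table, so the letters were in 1 of 8 promoters (12.5%) against 2.94% of all, a number too small to compare.

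Macrophage markers did not move together. Of 15 tested, 7 were lower and 2 were higher in tumors, with a median log2 fold change of -0.80. Trem2, a lipid receptor of macrophages, was at 19.9, 23.6 and 14.9 CPM in tumors against 272, 176 and 279 CPM in scaffolds (-3.79 ± 0.27), and Cd68, a lysosomal protein, was at 81.7, 67.6 and 42.7 CPM against 819, 486 and 873 CPM (-3.66 ± 0.33). Csf1r, the receptor that keeps macrophages alive, was at 169 to 229 CPM against 505 to 596 CPM (-1.61 ± 0.18). Scaffold levels were thus higher for all 3, by amounts that differed. Mrc1, the mannose receptor, was at 284 to 431 CPM in tumors and 317 to 395 CPM in scaffolds (-0.18 ± 0.20, adjusted p 0.5), and C1qc, a complement component made by macrophages, was at 322 to 350 CPM against 209 to 381 CPM (0.16 ± 0.21). Cd163, a hemoglobin scavenger receptor, went the other way, at 47.2, 69.1 and 44.7 CPM in tumors and 20.7, 12.3 and 13.6 CPM in scaffolds (1.63 ± 0.25).

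Arg1, which encodes the arginase of tumor-associated myeloid cells, showed the largest increase of the immune genes described. It was at 515, 627 and 669 CPM in tumors, at 4.24, 3.54 and 4.13 CPM in 4T1 scaffolds and at 1.90 to 2.73 CPM in control scaffolds (log2 fold change 7.09 ± 0.24, 136-fold, adjusted p 1.11e-07). Nos2, the inducible nitric oxide synthase that uses the same substrate, was at 6.22, 7.58 and 27.2 CPM against 0.327, 1.12 and 0 CPM (4.65 ± 0.81). These were the 2 members of the list of myeloid suppressor effectors that were higher of 12 tested, and 4 were lower. The lower members were S100a8 and S100a9, the calprotectin subunits, Cybb, the catalytic subunit of the phagocyte oxidase (159 to 202 against 1286 to 1511 CPM, -3.10 ± 0.21), and Acod1, the enzyme that makes itaconate (4.3 to 12.3 against 64.7 to 197 CPM, -3.90 ± 0.44). Acod1 was highest in scaffold 35, and its range in control scaffolds was 18.9 to 271 CPM.

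**Figure D3:**
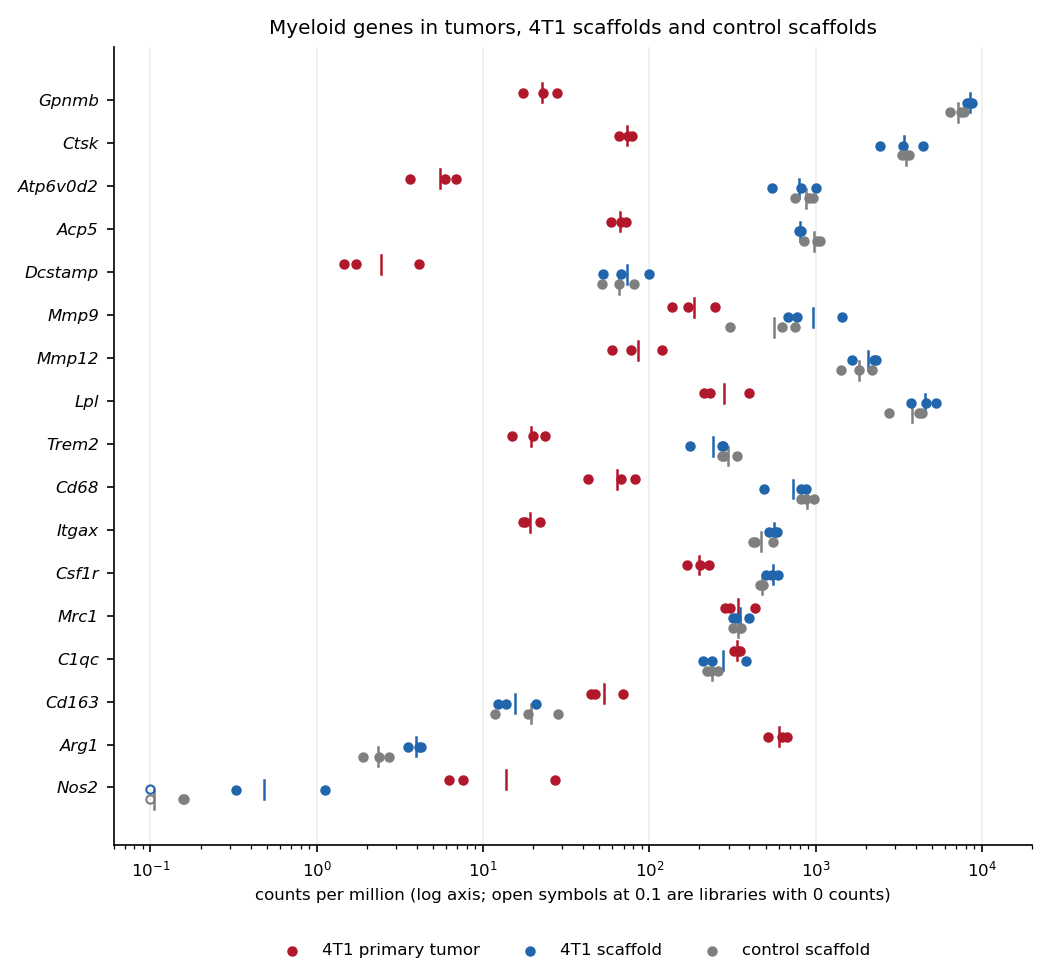
CPM (log axis) of myeloid genes, 1 point per library, in 3 4T1 tumors (red), 3 4T1 scaffolds (blue) and 3 control scaffolds (grey), with short lines at the group means and open symbols for 0 counts. Giant cell genes such as Gpnmb and Ctsk lie high in both kinds of scaffold, Mrc1 and C1qc overlap between tissues, and Arg1 is above 500 CPM in tumors and below 5 CPM in all 6 scaffolds.

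Granulocyte genes were lower in tumors. Of 10 mature neutrophil markers, 7 were lower and none was higher, with a median log2 fold change of -1.73. S100a8 was at 413, 249 and 400 CPM in tumors and at 1619, 1086 and 1027 CPM in scaffolds (-1.95 ± 0.27, adjusted p 0.000199). With all tumors and scaffolds in 1 fit, S100a8 did not pass (-1.94). Cxcr2, the receptor that draws neutrophils to chemokines, was at 8.59, 9.43 and 8.63 CPM against 21.7, 29.8 and 25.5 CPM (-1.67 ± 0.21). Retnlg, another neutrophil gene, was at 21.1 to 38.9 CPM in tumors and 28.2 to 35.1 CPM in scaffolds and did not pass. The control scaffolds varied more than the 4T1 scaffolds, with summed levels of the list of 327 to 2134 CPM against 2137 to 3056 CPM.

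Of 8 immature neutrophil granule genes, 5 were lower and Lcn2 (82.0 to 161 against 15.3 to 42.3 CPM, log2 fold change 1.83 ± 0.34) was higher. That count of 5 fell to 1 without scaffold 34, to 2 without tumor 44 and to 1 without tumor 45, and it was 2 with all tumors and scaffolds in 1 fit. Scaffold 34 held the highest sum, 352 CPM against 133 and 79.0 CPM, and the same library held the most hemoglobin and red cell transcripts, 9423 CPM against 3902 and 3212 CPM, so that blood markers moved with it. Their part in the result was not tested beyond leaving the library out. Of 8 eosinophil markers, 6 were lower, with 3 left without scaffold 34 or without tumor 45. Siglecf, an eosinophil lectin, was at 0.731, 2.46 and 1.3 CPM against 12.1, 4.1 and 11 CPM (-2.76 ± 0.52). Ear1, Ear2 and Ear6 share reads with near-identical family members. Of 8 mast cell markers, 3 were lower, and of 7 monocyte markers, 3 were lower, with 1 left without scaffold 35 (where Plac8 was at 296 CPM against 61.4 and 60.5 CPM), without tumor 44 or without tumor 45.

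T cell markers were more often higher than lower in tumors, with wide spread. Of 15 T cell markers, 9 were higher and 1 was lower, and the median log2 fold change was 1.40. The count of 9 fell to 4 without scaffold 34, scaffold 36, tumor 43 or tumor 44 and rose to 11 without tumor 45, which held the least of these transcripts. Cd3e, a subunit of the T cell receptor complex, was at 9.33, 13.7 and 3.02 CPM in tumors and at 1.63, 1.31 and 1.26 CPM in scaffolds (2.47 ± 0.52, adjusted p 0.00316). Cd8a, the coreceptor of cytotoxic T cells, was at 8.23, 7.58 and 3.67 CPM against 0.49, 0.559 and 0.539 CPM (3.43 ± 0.47). Neither overlapped, although tumor 45 was lowest for both. Cd4 was at 4.32 to 11.9 CPM in tumors and 2.12 to 10.8 CPM in scaffolds and did not pass (0.55 ± 0.56).

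The lower member was Il7r, the interleukin-7 receptor chain, at 35.8, 31.8 and 33.7 CPM in tumors against 860, 516 and 819 CPM in scaffolds (-4.59 ± 0.27, adjusted p 7.84e-07), and control scaffolds were at 556 to 627 CPM. Cytotoxic genes were divided. Gzmb and Prf1, granzyme B and perforin, were higher in tumors (8.41, 6.15 and 15.3 against 1.47, 4.29 and 1.44 CPM for Gzmb, 1.93 ± 0.47). Gzma, granzyme A, was lower at 5.67, 5.94 and 6.26 CPM against 22.9, 20.5 and 18.1 CPM (-1.92 ± 0.21), as were Ncr1, Klrb1c and Tbx21, so the list of 10 gave 2 higher and 4 lower. Klrb1c, the NK1.1 gene, had 3 counts over the tumors, and the scaffolds were 12.9 times higher (4.13 to 64.9). Of 10 B cell markers, 3 were higher, with 1 left without scaffold 36, tumor 43 or tumor 44 and 6 called without scaffold 34.

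Plasma cell genes were also divided, with Ighg1 higher (44.6, 16 and 4.75 against 1.63, 1.68 and 1.8 CPM, log2 fold change 3.54 ± 0.70) and 3 of 7 lower. The count of plasma cell genes that were higher was 3 without scaffold 34 and 2 without tumor 45. Of 11 dendritic cell markers, Ccr7, Fscn1 and Ccl22 were higher and 2 were lower, with 1 lower in all leave-one-out fits but that without tumor 43. Ccr7 held 71, 69 and 18 counts in tumors 43, 44 and 45 against 16, 27 and 16 in scaffolds 34, 35 and 36. It did not pass without scaffold 34, scaffold 36, tumor 43 or tumor 44. Which cells held the transcripts of these 3 genes was not tested. Itgax, the CD11c gene, was the largest of the lower members at 22.1, 17.8 and 17.5 CPM in tumors against 587, 522 and 567 CPM in scaffolds (-5.01 ± 0.22). Of 7 red blood cell genes, 3 were lower in tumors, and 6 were without scaffold 35 or without scaffold 36. Of 5 platelet genes, 1 was lower, and none without scaffold 34, tumor 44 or tumor 45.

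Stromal genes were lower in tumors by modest amounts. Of 16 fibroblast markers, 9 were lower and none was higher, with a median log2 fold change of -1.13. Dcn, the collagen-binding proteoglycan decorin, was at 283, 419 and 440 CPM in tumors and 1128, 1265 and 948 CPM in scaffolds (-1.69 ± 0.22, adjusted p 0.00013). Col3a1 was at 1471, 2015 and 1776 CPM against 2912, 5398 and 2835 CPM (-1.21 ± 0.27), and did not pass without scaffold 35. Col1a1 was at 1652 to 2340 CPM against 2780 to 3827 CPM, without overlap, and its change was under 2-fold (-0.77 ± 0.22). Postn, periostin, was at 170 to 199 CPM in tumors and 179 to 196 CPM in scaffolds (-0.17 ± 0.16, adjusted p 0.41). Of 9 fibril-forming collagens tested, 4 were lower. Scaffold 35 held the highest summed level of fibroblast markers, 19693 CPM against 13981 and 12478 CPM.

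Of 18 adipocyte markers, 6 were lower, a count that fell to 3 without tumor 43 or tumor 45 and rose to 9 without tumor 44. Lpl and Pparg were among the lower members, and the cells that held their transcripts were not told apart. Lpl, the lipoprotein lipase, was at 231, 399 and 214 CPM in tumors against 4615, 3721 and 5280 CPM in scaffolds (-4.17 ± 0.32, adjusted p 4.01e-06), and Pparg, the nuclear receptor of fat storage, was at 0.863 to 1.84 CPM against 12.6 to 14.2 CPM (-3.53 ± 0.32). Plin1, a coat protein of adipocyte lipid droplets, was at 24.1, 65.8 and 19.9 CPM in tumors and 26.4, 43.6 and 21.7 CPM in scaffolds and did not pass. Tumor 44, from the mammary fat pad like the others, was highest for Lpl and Plin1.

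Vessel genes showed small differences. Of 15 blood endothelial markers, 4 were lower and Flt1 was higher, with a median of -0.68. Flt1, a receptor for Vegfa, was at 126, 125 and 194 CPM in tumors and 61.7, 73.3 and 65.0 CPM in scaffolds (1.01 ± 0.20), just past the 2-fold threshold, and did not pass without scaffold 34 or without tumor 45. Kdr, the other main Vegfa receptor, was at 59.2 to 71.9 CPM against 120 to 152 CPM (-1.20 ± 0.17), and Tek, the angiopoietin receptor, was at 4.1 to 6.58 CPM against 16.0 to 20.1 CPM (-2.00 ± 0.25). Of 11 pericyte and smooth muscle markers, 4 were lower, and 2 without scaffold 35. Without scaffold 35, 1 of these pericyte and smooth muscle markers was higher. Of 4 lymphatic endothelial markers, 1 was lower, with none lower without scaffold 34 or tumor 44, 2 lower without scaffold 35 or scaffold 36, and 1 higher without scaffold 34. Schwann cell markers gave 1 higher and 2 lower of 8, and none was lower without scaffold 34 or any 1 of the tumors. Skeletal muscle markers gave 1 higher and 1 lower of 17, and 3 higher without scaffold 35 or tumor 44. The lower count of muscle markers was 0 without scaffold 35, tumor 43 or tumor 44 and 2 without tumor 45.

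The basement membrane, the sheet on which epithelia and vessels rest, changed by chain. Of 24 genes, 6 were higher and 5 were lower in tumors, and 2 were lower without tumor 43. Lamb3 and Lama3, laminin chains of epithelial anchorage, were among those that were higher. Lamb3 was at 25.6, 17.6 and 19.9 CPM in tumors against 1.47, 1.31 and 1.26 CPM in scaffolds (log2 fold change 3.80 ± 0.29, adjusted p 3.84e-06). Lama5, a laminin chain of many epithelia, was at 122, 128 and 139 CPM against 3.43, 6.9 and 3.77 CPM (4.65 ± 0.25), and Col7a1, the anchoring fibril collagen, was at 99.7 to 154 CPM against 8.02 to 10.1 CPM (3.57 ± 0.24). The lower members were Lama2, Lama4, Nid1, Nid2 and Col4a4, of which the first 4 are chains and linkers of muscle, vessel and stromal basement membranes.

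Of 20 glycoproteins, 5 were lower and 3 were higher. Tnc, tenascin C of remodelled stroma, was at 237, 235 and 354 CPM in tumors against 37.1, 49.0 and 37.5 CPM (2.6 ± 0.22), and Ccn2 was also higher. Spp1, osteopontin, was at 2040 to 2490 CPM in tumors and 2086 to 3997 CPM in scaffolds and did not pass. Of 32 matrix proteases, crosslinkers and inhibitors, 16 were lower and 5 were higher, with a median of -0.92. Mmp12, the macrophage metalloelastase, was at 77.2, 59.2 and 119 CPM in tumors against 1648, 2242 and 2291 CPM (-4.74 ± 0.32, adjusted p 1.55e-06). Mmp9, a gelatinase of neutrophils and osteoclasts, was at 170, 137 and 249 CPM against 681, 1432 and 769 CPM (-2.50 ± 0.31).

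Chemokines, the attractants of leukocytes, were divided by member. Of 27 tested, 7 were higher and 8 were lower in tumors. Cxcl12, which retains cells that carry Cxcr4, was at 78.3, 79.5 and 69.9 CPM in tumors and 441, 573 and 481 CPM in scaffolds (-2.85 ± 0.18, adjusted p 1.25e-06), and Cxcr4 itself was at 9.07 to 15.6 CPM against 48.7 to 77.2 CPM (-2.56 ± 0.25). Cxcl5, a ligand of Cxcr2, was at 29.8, 23.6 and 41 CPM against 101, 377 and 155 CPM (-2.86 ± 0.42), with scaffold 35 highest. Cxcl12 and Cxcl5 thus were each lower in tumors along with the receptor named for them, and this does not cover other ligands of these receptors. Ccl12, a monocyte attractant, was higher at 52.1, 53.9 and 61.9 CPM against 7.02, 13.4 and 9.16 CPM (2.37 ± 0.23). Cx3cl1, a membrane-bound chemokine, was at 25.6 to 31.7 CPM against 1.63 to 5.04 CPM (3.02 ± 0.32). The ligands of Cxcr3 (Cxcl9, Cxcl10 and Cxcl11) were higher, although Cxcl9 overlapped, at 53.8, 15.2 and 63.5 CPM against 13.9, 17.7 and 12.4 CPM, and did not pass without scaffold 34, scaffold 36, tumor 43 or tumor 45. Of 21 chemokine receptors, 3 were higher and 5 were lower.

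Of 37 cytokines and growth factors, 12 were higher and 6 were lower, with a median of -0.16. Csf3, the granulocyte colony-stimulating factor that drives neutrophil output, was at 16.3, 18.9 and 17.9 CPM in tumors, and the scaffolds held 3 counts in total. The ratio was 100.2 with an interval of 33.9 to 489. Csf3r, its receptor, was lower in tumors at 4.96 to 6.58 CPM against 8.16 to 18.3 CPM (-1.27 ± 0.31), and did not pass without scaffold 35. Inhba, the activin A chain, was at 372, 317 and 513 CPM against 27.8, 26.7 and 32.3 CPM (3.64 ± 0.24, adjusted p 1.42e-06). Hbegf and Areg, which with Tgfa bind the epidermal growth factor receptor, were at 269 to 322 CPM against 20.1 to 22.4 CPM (3.67 ± 0.19) and at 36.8 to 42.3 CPM against 2.33 to 4.66 CPM (3.43 ± 0.24). Tnf was lower at 2.56, 2.87 and 1.51 CPM against 22, 36.7 and 16.3 CPM (-3.54 ± 0.35), and so was Igf1, at 60.9 to 93.3 CPM against 308 to 415 CPM (-2.26 ± 0.21). Il1b was at 164 to 218 CPM in tumors and 182 to 388 CPM in scaffolds and did not pass.

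Genes of MHC class I presentation were more often higher in tumors, and complement genes were more often lower. Of 13 MHC class I presentation genes, 6 were higher and none was lower, with a median of 0.92. Nlrc5, the class I transactivator, was at 19.4, 13.1 and 16.2 CPM in tumors and 3.59, 5.41 and 6.28 CPM in scaffolds (1.53 ± 0.29). H2-K1, which encodes a classical class I chain, was at 392 to 511 CPM against 170 to 462 CPM and did not pass (0.56 ± 0.31), and H2-Q4 and H2-Q7, which were higher, share reads with other class I genes. Of 11 MHC class II presentation genes, 2 were higher, with 1 left without scaffold 35 or tumor 43, and Ctss was lower. Of 22 interferon-stimulated genes, 4 were higher and 1 was lower, with 2 higher without scaffold 34, 3 lower without scaffold 36, and 2 lower without scaffold 35 or tumor 44. Gbp2 was at 94.4, 65.8 and 146 CPM against 19.4, 34.5 and 21.0 CPM (1.90 ± 0.30). Of 20 complement genes, 9 were lower and 2 were higher, with 1 higher without scaffold 36, tumor 43 or tumor 45. C3, the central component, was at 133, 167 and 112 CPM against 475, 475 and 516 CPM (-1.98 ± 0.20), and Clu, which encodes clusterin, an inhibitor of the terminal complex, was higher at 302 to 327 CPM against 19.6 to 36.9 CPM (3.28 ± 0.22).

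Hox genes, the homeobox genes that record position along the body axis, changed in both directions between tissues taken from the mammary fat pad and the upper back. Of 29 tested, 12 were higher and 6 were lower in tumors, and 5 of the 39 listed had no count in these libraries. The genes that were higher included Hoxa2, Hoxa3, Hoxa5, Hoxa6, Hoxa7, Hoxa9 and Hoxa10 of the Hoxa cluster. Hoxa5 was at 414, 371 and 331 CPM in tumors and at 5.71, 12.1 and 5.03 CPM in scaffolds (log2 fold change 5.49 ± 0.31, adjusted p 5.46e-07). Hoxa10 was at 41.9, 45.7 and 32.4 CPM in tumors, and the scaffolds held 1 count in total, a ratio of 685 (123 to 27118). Hoxc8, Hoxc9, Hoxc10 and Hoxb9, of higher paralog numbers, were also higher, with Hoxc9 at 8.61 to 10.8 CPM against 0.718 to 1.63 CPM (2.74 ± 0.34).

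The 6 genes that were lower were Hoxb4, Hoxb5, Hoxb7, Hoxc4, Hoxd4 and Hoxd8. Hoxd4 was at 9.33, 11.9 and 8.42 CPM in tumors and at 19.6, 27 and 21.9 CPM in scaffolds (-1.35 ± 0.22), and Hoxd8 was at 6.03, 7.99 and 6.91 CPM against 20.1, 21.1 and 15.3 CPM (-1.57 ± 0.22). None belonged to the Hoxa cluster. Pitx1, a factor of hindlimb identity, was at 9.33, 14.8 and 12.7 CPM in tumors against 2 counts over the scaffolds, a ratio of 104 (28.3 to 862). Of the other position factors, Tbx18 (3.89 to 5.4 against 8.98 to 17.2 CPM, -1.70 ± 0.30) and Zic1 were lower. Position of the tissue and origin of the cells cannot be told apart in this design, since every tumor was in the mammary fat pad and every scaffold on the back.

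**Figure D4:**
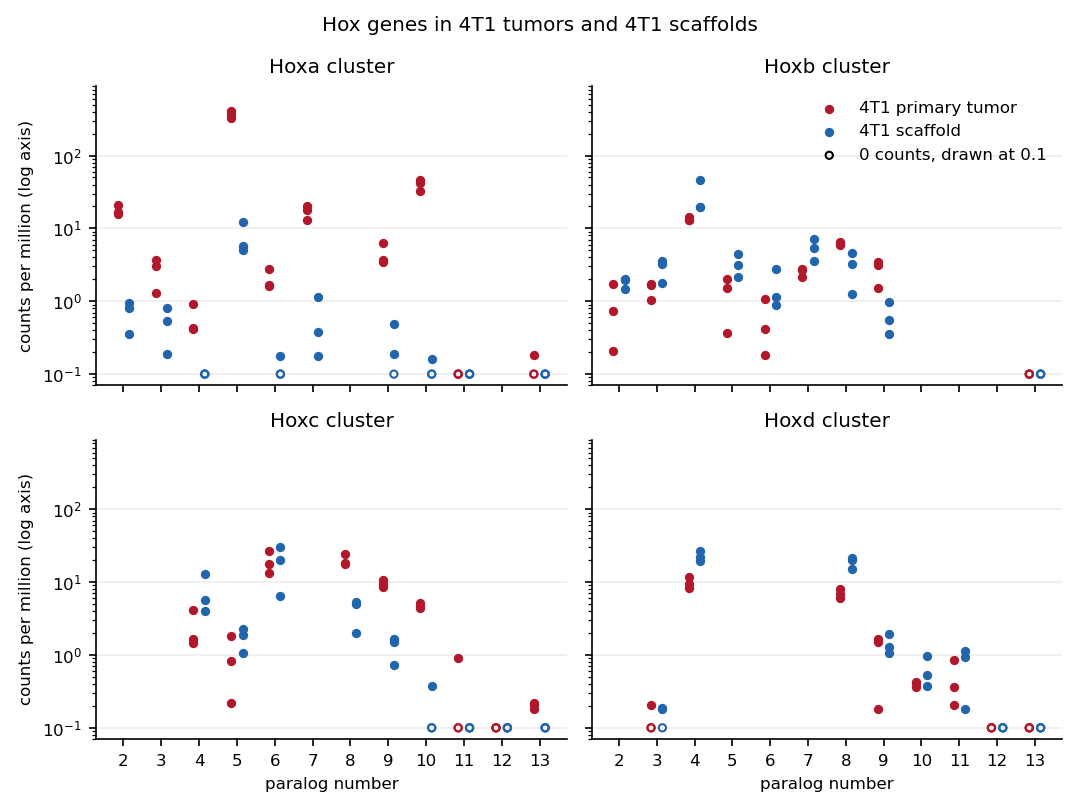
CPM (log axis) of Hox genes of paralog number 2 and above in 3 4T1 tumors (red) and 3 4T1 scaffolds (blue), by cluster and by paralog number, 1 point per library, with open symbols at 0.1 for 0 counts. Hoxa5 runs from 331 to 414 CPM in tumors and from 5.03 to 12.1 CPM in scaffolds, and Hoxd4 and Hoxd8 are higher in the scaffolds.

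Of the 9 genes of the scaffold signature, which the study chose on these scaffolds, 2 were lower and none was higher in tumors. Over all genes tested, 14.5% were lower and 14% were higher. Since the 9 genes were selected on these scaffolds, they are not independent evidence of a direction. Slc1a3, a glutamate transporter, was lower in tumors at 11.2, 12.5 and 8.63 CPM against 21.2, 30 and 20.5 CPM (-1.28 ± 0.22, adjusted p 0.00105). Spon2, a matrix protein of innate immunity, was lower at 2.38, 3.07 and 2.59 CPM against 11.4, 7.46 and 6.64 CPM (-1.81 ± 0.32). The other 7 did not pass, and Ifitm1 passed without scaffold 35. Dhx9, an RNA helicase, was at 225 to 257 CPM in tumors and 120 to 130 CPM in scaffolds (0.77 ± 0.16), Ifitm1, an interferon-induced membrane protein, at 101 to 151 CPM against 51.8 to 93.8 CPM (0.76 ± 0.24), and Pja2, a ubiquitin ligase, at 112 to 135 CPM against 80.8 to 90.8 CPM (0.38 ± 0.16). These 3 were above every scaffold in every tumor and under 2-fold, where 30% of all genes tested were without overlap in this direction. Ndufs1, of respiratory complex I, was at 96.1 to 115 CPM against 136 to 144 CPM (-0.58 ± 0.16). Dusp12, Fhl1 and Soga1 overlapped between the tissues, with log2 fold changes of -0.04, -0.61 and -0.17.

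Of the genes chosen for their high level in 4T1 tumors in earlier results, H19 and Nptx1 were also far from the scaffolds. H19, an imprinted long non-coding RNA, was at 1667, 1377 and 1561 CPM in tumors and 33.5, 51.5 and 18.7 CPM in scaffolds (log2 fold change 5.35 ± 0.34), with control scaffolds at 25.6 to 38.5 CPM. Nptx1, a secreted pentraxin of neurons, was at 92.9, 96.5 and 55.5 CPM against 0.816, 1.49 and 1.08 CPM (6.02 ± 0.33). Their direction was known when they were chosen and is no support for a pattern.

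The same contrast was set beside that of the sister lines, with the difference tested in 1 model over 18 libraries and 6 groups. Of 23778 genes tested, 2974 (12.5%) differed in their tumor-to-scaffold change between 4T1 and 67NR, 1717 (7.22%) with a higher value in 4T1 and 1257 (5.29%) with a lower one. This excess of higher values was smaller with the DESeq2 Wald test, which gave 1610 higher and 1493 lower. Between 4T1 and 4T07 there were 774 (3.26%), 398 (1.67%) higher and 376 (1.58%) lower. The count of 376 was 243 without tumor 43.

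Of the 18 epithelial markers, 13 had a higher change in 4T1 than in 67NR, and 12 higher and 1 lower than in 4T07. Krt8 was at 0.847 to 1.96 CPM in 67NR tumors and at 21.2 to 35.9 CPM in 4T07 tumors, and the change in 4T1 exceeded that in 67NR by 7.79 ± 0.67 on the log2 scale (adjusted p 2.47e-08) and that in 4T07 by 3.47 ± 0.60 (adjusted p 0.00111). For Cldn4 the excess over 67NR was 5.17 ± 0.69 and that over 4T07 was 5.4 ± 0.56. H19 went the opposite way in the other lines: the log2 change was -3.08 ± 0.37 in 67NR and -2.09 ± 0.35 in 4T07, against 5.35 in 4T1. H19 was at 1.68 to 9.60 CPM in 67NR tumors and at 5.62 to 7.34 CPM in 4T07 tumors.

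Cell cycle genes did not differ past the threshold for any of 31 members in either comparison, with 30 members higher in 67NR tumors and 13 in 4T07 tumors than in the scaffolds of those lines. Of the 26 glycolysis and hypoxia genes, 15 had a higher change in 4T1 than in 67NR and 1 a lower one, and none differed from 4T07. Car9 showed this pattern, with a log2 change of 1.76 ± 0.33 in 67NR and 5.33 ± 0.34 in 4T07, and a difference of 2.95 ± 0.45 between 4T1 and 67NR (adjusted p 5.65e-05). Fibroblast markers were lower in 67NR tumors for all 16 members, and 13 differed from 4T1. Col1a1 was at 173 to 217 CPM in 67NR tumors against 1652 to 2340 CPM in 4T1 tumors, and the difference in change was 3.19 ± 0.30. For matrix glycoproteins (15 of 20) and matrix proteases (18 of 32) the value was also higher in 4T1 than in 67NR. By list median this was a smaller fall and not a rise. The median log2 changes were -0.47 in 4T1 and -2.87 in 67NR for glycoproteins, and -0.92 and -2.04 for matrix proteases.

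Giant cell markers were lower in the tumors of all lines, 11 members in each. Gpnmb was at 18.5 to 45.4 CPM in 67NR tumors and 279 to 359 CPM in 4T07 tumors, and its fall in 4T1 was larger than in 67NR by 1.13 (difference -1.13 ± 0.35, adjusted p 0.0319, which did not pass without scaffold 36, tumor 43 or tumor 45) and than in 4T07 by 3.69 (difference -3.69 ± 0.35, adjusted p 8.88e-07). Arg1 was at 3.23 to 5.93 CPM in 67NR tumors and 801 to 1045 CPM in 4T07 tumors. Its change exceeded that in 67NR by 6.79 ± 0.72 (adjusted p 4.87e-07) and differed from that in 4T07 by 1.13 ± 0.57 (adjusted p 0.368). Hoxa5 had a higher change in 4T1 than in 67NR (3.54 ± 0.40) and than in 4T07 (2.34 ± 0.40), although it rose in the tumors of all 3 lines.

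**Figure D5:**
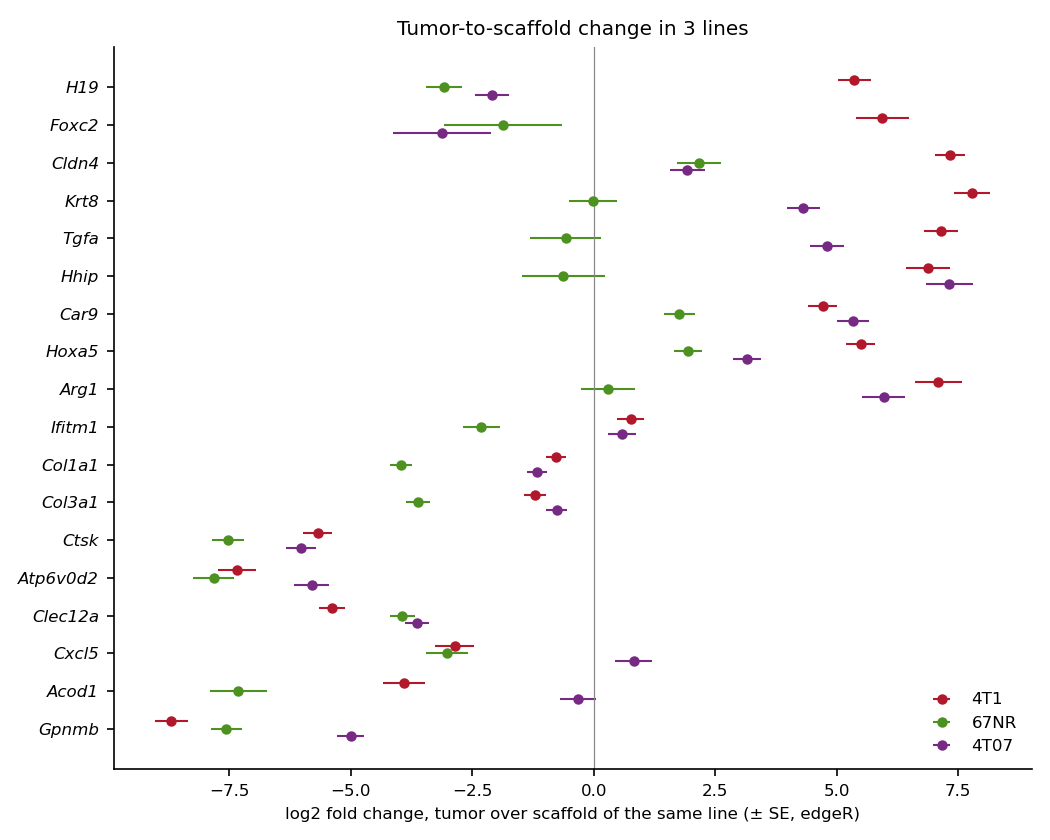
Log2 fold change of tumor over the scaffold of the same line (points, ± SE from edgeR) for selected genes in 4T1 (red), 67NR (green) and 4T07 (purple), 3 libraries per group. H19 is at 5.35 in 4T1 and below 0 in the other lines, Krt8 and Arg1 are near 0 in 67NR, and Gpnmb and Ctsk are below -4 in all 3 lines.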

How the data were processed

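Tissue was flash-frozen, and RNA was made into 3' tag libraries with a kit that adds molecular identifiers and sequenced on a NovaSeq instrument. The deposited values are raw counts per gene symbol, made by the authors with Trim Galore 0.5.0, STAR 2.6.0 and featureCounts according to the submitters' processing notes. The genome build, the annotation, the strand setting and whether identifiers were collapsed are not given in the sources used here. The column of the first control scaffold is named by a digit that is also a column position, so it was labelled as another kind of value. Its values are raw counts like those of the other columns and were read in the same way. This library was used for levels in control scaffolds and in a fit of all groups.

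The table holds 45 libraries, of which 24 (other tissues and groups) were not used here. Rows that repeat a symbol were summed. Genes with more than 10 counts over the 6 libraries were tested with the edgeR 4.0.16 quasi-likelihood F test (R 4.3.3) after TMM scaling, unpaired, with Benjamini-Hochberg adjustment over all genes tested, an adjusted p under 0.05 and more than 2-fold change. SE is the log2 fold change divided by the root of F. CPM is the count scaled to the library total, and levels were not compared between genes. Differences between lines were interaction terms over 18 libraries. Where a group had 1 to 3 counts, a ratio with an exact 95% interval replaced the fitted fold, and a group at 0 was set to 3 counts per library. The fit was tested on simulated data. Alternatives were the DESeq2 1.42.0 Wald test, other scalings, other count filters, a test against 2-fold (glmTreat), all groups in 1 fit and each library left out.

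The members and lists were chosen with earlier results of these data known. Genes were named by a rule: in each direction the 12 largest changes among genes without overlap that reached a mean of 50 CPM, the signature genes and the genes high in 4T1 tumors, at most 5 genes per list (the 2 passing genes of highest level, the largest change in each direction and the highest member that did not pass), and the 4 largest differences per direction between lines among genes of at least 20 CPM. Of the 165 genes named in the results, 63 are outside this rule and were chosen after their values were seen. Of these 63, the main ones are Acp5, Epcam, Cdh1, Mki67, Egln3, Vegfa, Trem2, Cd68, Csf1r, Mrc1, Cd163, Nos2, Cd3e, Gzma, Ccl12, Hbegf, Areg, Col1a1, Postn, Plin1, Hoxc9, Hoxd4 and Hoxd8. Replicates are separate libraries, for which the study states 3 mice per condition. Some items are not reported here.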

Additional observations from a re-analysis of the deposited data

Results flagged for a closer look

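The tumor-to-scaffold log2 change of the genes below differed between 4T1 and a sister line in the interaction test (edgeR quasi-likelihood test, Benjamini-Hochberg adjusted), which is why they are listed. Values are 4T1 minus the other line. Where a group was at or near 0 counts, the fitted difference depends on how zeros are handled and is no bound, so the levels are given with it.

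Against 67NR, genes of the carcinoma and its secreted factors had the higher value in 4T1. The difference was 8.43 for H19, 7.79 for Krt8, 7.72 for Tgfa, 7.51 for Hhip and 5.17 for Cldn4. Ibsp (13.12), Nptx1 (11.38) and Pthlh (9.33), the last encoding parathyroid hormone-related protein, had no count in any 67NR tumor. Il1f9, an interleukin-1 family cytokine, gave 9.00, with no count in 67NR tumors and 64.5 to 78.8 CPM in 67NR scaffolds, against 3.89 to 6.48 CPM and 22.5 to 33.6 CPM in 4T1. Il1f9 was thus lower in tumors than in scaffolds in both lines, by less in 4T1. Myeloid and stromal genes with a higher value in 4T1 were Arg1 (6.79), Acod1 (3.41), Ctsk (1.84), Col1a1 (3.19) and Col3a1 (2.40). Of these, Acod1, Ctsk, Col1a1 and Col3a1 were lower in tumors than in scaffolds in both lines, by less in 4T1. Hoxa5 (3.54), Car9 (2.95), and the signature genes Ifitm1 (3.07) and Slc1a3 (1.51) also had a higher value in 4T1, which for Slc1a3 was a smaller fall.

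The lower values against 67NR were led by genes that 67NR tumors expressed and 4T1 tumors hardly did. Rhox5, a homeobox gene of the X chromosome, was at 653 to 890 CPM in 67NR tumors and 1.02 to 2.56 CPM in 4T1 tumors (difference -13.59). Pnma5 was at 301 to 443 CPM against 0.216 to 0.731 CPM (-13.08), Cldn9, a claudin, at 133 to 136 CPM against 1.08 to 2.25 CPM (-10.16), and Xlr3c at 24.3 to 29.8 CPM against at most 0.183 CPM (-9.66). Cldn9 did not pass without scaffold 34 or scaffold 36, and Xlr3c did not pass without scaffold 34. Clec12a (-1.45) and Gpnmb (-1.13) fell further in 4T1.

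Against 4T07, Nptx1 (9.93), Foxc2 (9.05), H19 (7.45), Cldn4 (5.4), Krt8 (3.47), Hoxa5 (2.34) and Tgfa (2.34) had the larger change in 4T1. Foxc2, a forkhead factor of mesenchyme and vessels, was at 18.9 to 22.3 CPM in 4T1 tumors and at most 0.201 CPM in 4T07 tumors. Tgfa did not pass without scaffold 35, scaffold 36 or any 1 of the 3 tumors. Myh4, a fast muscle myosin, gave 7.40 with 31.5, 5.33 and 126 CPM in the 4T1 tumors, and did not pass without tumor 45, the tumor with the most skeletal muscle transcripts.

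Lower values against 4T07 were those of Krt76 (-10.93), Csn2 (-7.51), Itih2 (-6.14), Sncg (-4.94), Gpnmb (-3.69), Cxcl5 (-3.68), Acod1 (-3.57) and Clec12a (-1.75). Krt76, a keratin, was at 12.0 to 35.8 CPM in 4T07 tumors and had no count in 4T1 tumors. Csn2, the milk protein beta-casein, was at 24.5 to 191 CPM against 0.183 to 0.863 CPM and did not pass without scaffold 35. Sncg, gamma-synuclein, was at 53.5 to 62.9 CPM against 1.30 to 8.2 CPM, and Acod1 was at 35.8 to 66.2 CPM in 4T07 tumors against 4.3 to 12.3 CPM.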

How the results depend on the processing

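The count of 5493 genes changed (2706 higher and 2787 lower in tumors) was 3322 (1570 and 1752) where every library had to hold at least 10 counts, with 11728 genes tested, and 2647 (1374 and 1273) with glmTreat against 2-fold. Without TMM scaling the counts were 3182 higher and 2317 lower, which moved the share of calls that were higher from 49.3% to 57.9% and the median of all genes to 0.11. DESeq2 gave 2505 and 2492. With 1 library left out the count was 4800 to 5731. Of 4T1 minus 67NR differences, 1717 were higher and 1257 lower, against 1610 and 1493 with DESeq2. The excess of higher values also shrank with DESeq2 size factors and with at least 10 counts in every library of a group. It remained with 1 library left out (1570 to 1831 higher, 1013 to 1192 lower). The median of this difference over all genes was 0.16, so its split by direction depends on the processing. Of 4T1 minus 4T07 differences, 376 were lower, with 243 to 360 when 1 library was left out, the lowest without tumor 43.

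Of the 144 genes named as changed, 21 did not pass without some 1 library. These include Hoxa3, Hoxb4, Hoxb5, Hoxb7, Hoxb9, Hoxc4, Ccr7, Cxcl10, Ear2, Ear6, Nid1, Nid2, Col4a4, Cdh2, Ccn2 and Plac8. With glmTreat, 35 did not pass. Ear2, Hoxb5, Nid2 and Plac8 did not pass with DESeq2, and Ear2, Ear6 and S100a8 did not pass with all groups in 1 fit. Cd4, H2-K1 and Ifitm1 passed without scaffold 35.

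The direction turned for genes that did not pass. Dusp12 was 0.10 without TMM scaling and 0.16 without tumor 45, Retnlg was 0.0098 without TMM scaling and 0.087 without tumor 44 (from -0.32 to 0.087 over the libraries left out), and Plin1 was -0.066 without scaffold 36 and -0.59 without tumor 44 (from -0.59 to 0.42). The 4T1 minus 67NR difference of Spon2 was 0.27, 0.084 and 0.039 without scaffold 34, tumor 43 or tumor 45 (from -0.11 to 0.27), and that of Cxcl5 was -0.17 and -0.056 without scaffold 34 or tumor 45 (from -0.17 to 0.81). Against 4T07, Spon2 was -0.030 with DESeq2, -0.019 with its size factors, -0.026 with at least 10 counts in every library of a group, and -0.040, -0.081 and -0.032 without scaffold 35, scaffold 36 or tumor 44 (from -0.081 to 0.31). Ndufs1 was -0.0017 under that filter, Hhip 0.0046 without scaffold 35 (from -0.75 to 0.0046), and Csf3 -0.21 with DESeq2 and -0.49 without scaffold 34 (from -0.49 to 0.97). The cause was not tested. No paired analysis was possible because the library numbers are unique and the labels do not link the tissues of a mouse. For 1 gene taken alone, permuting 3 against 3 libraries allows no p under 0.1, so calls rest on the spread shared across genes.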

Other observations

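Imprinted genes, chosen here after their values were seen, did not share a direction. H19 and Phlda2 were higher in 4T1 tumors (1377 to 1667 against 18.7 to 51.5 CPM for H19), whereas Cdkn1c was lower, at 2.38, 2.25 and 1.73 CPM in tumors against 139, 92.1 and 129 CPM in scaffolds. Control scaffolds held Cdkn1c at 90.8 to 153 CPM, and its tumor-to-scaffold log2 change was -6.45 in 67NR and -5.33 in 4T07, without a difference from 4T1 past the threshold (adjusted p 0.516 and 0.436 by edgeR). Igf2, the neighbour of H19, had no count in any of these 6 libraries or in the control scaffolds. Whether the transcript was absent or its reads were not assigned to this symbol was not tested.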
